A study of Mus musculus with 6 samples.

Results

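The EGR proteins, their NAB corepressors and the SRF and ELK factors that switch EGR genes on form a small transcription circuit, described here across 6 arrays of mouse thymocytes. Members were all probe sets whose gene symbol in the platform annotation is Egr1, Egr2, Egr3, Egr4, Nab1, Nab2, Srf, Elk1, Elk3 or Elk4. These 10 genes have 23 of the 45037 probe sets of the array that are not controls. A probe set is a group of short probes read as 1 value, and several may read the same gene.

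The RNA was amplified from double negative thymocytes, T cell precursors with neither CD4 nor CD8 on their surface, sorted by flow cytometry according to the sample descriptions, whereas titles and source names give whole thymus. Of the 6 arrays, 3 are labelled Egr1/Egr3 double knockout, called double KO here, and 3 are labelled wild type, each with its own numbered animal. The sources used here do not give strain, age, sex or the way in which each gene was disrupted, so no allele can be named. The comparison asks how transcript levels differ between thymocytes of both genotypes.

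SRF binds a short DNA element, the CArG box, together with a ternary complex factor, which is ELK1, ELK3 or ELK4. Signals through RAS and the ERK kinases, such as those of the pre-T cell receptor in double negative thymocytes, phosphorylate the ELK proteins, and EGR genes are then transcribed within minutes. The EGR proteins are zinc finger factors that bind a shared GC-rich sequence, and NAB1 and NAB2 bind to EGR proteins and repress their activity.

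The promoters of 8 of the 10 genes were found in RefSeq (mouse build GRCm38.p6, 14 windows of 250 bases before to 50 bases after a transcription start). The targeted genes Egr1 and Egr3 had no window in the source used, so neither was searched for any of the sequences below. The letters of a CArG box on either strand were found in windows of Egr2 and Srf, whereas 1.63% of all 32851 promoter windows of that length hold such a match. The Srf window holds 2, and 0.0183% of all windows hold at least 2. The EGR sequence GCGNGGGCG, searched on both strands, was found in windows of Nab1, Srf, Elk3 and Elk4 and in 5.55% of all windows. Nab1 has 3 matches, which 0.195% of all windows reach or exceed. The ELK core CCGGAA, also searched on both strands, occurs in windows of Egr2, Srf and Elk4 and in 14.9% of all windows. In the windows of these genes no match of one search shared letters with a match of another, and 2 matches of CCGGAA in Egr2, on opposite strands, overlapped each other. A match is a description of the letters, not a binding site. The 250 bases before a start are given for Egr2, whose values followed those of Egr1 most closely among the members, at chr10:67537316-67537565 (+ strand), for Srf at chr17:46556163-46556412 (- strand) and for Nab1 at chr1:52500449-52500698 (- strand). Capitals mark the CArG boxes in Egr2 and Srf, and the EGR matches in Nab1.
Egr2: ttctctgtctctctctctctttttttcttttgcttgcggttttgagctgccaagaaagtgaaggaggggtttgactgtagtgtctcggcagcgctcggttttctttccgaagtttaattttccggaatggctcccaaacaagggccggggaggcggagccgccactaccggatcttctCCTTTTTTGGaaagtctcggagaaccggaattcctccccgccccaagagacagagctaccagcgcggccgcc
Srf: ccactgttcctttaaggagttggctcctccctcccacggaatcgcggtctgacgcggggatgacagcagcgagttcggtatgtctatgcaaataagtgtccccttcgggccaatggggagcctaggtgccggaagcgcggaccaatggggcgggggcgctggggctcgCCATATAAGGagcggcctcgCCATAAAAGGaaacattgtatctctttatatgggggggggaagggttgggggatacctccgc
Nab1: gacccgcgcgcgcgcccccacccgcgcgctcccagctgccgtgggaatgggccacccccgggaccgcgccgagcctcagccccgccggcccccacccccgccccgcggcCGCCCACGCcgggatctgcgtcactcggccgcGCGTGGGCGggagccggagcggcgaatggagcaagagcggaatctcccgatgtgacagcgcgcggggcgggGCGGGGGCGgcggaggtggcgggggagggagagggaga

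The arrays differ in ways that touch the results. Median intensity was 20.9 to 23.1 on the arrays labelled double KO and 19.9 to 22.6 on those labelled wild type. The brightest of 27 control probe sets for bacterial genes, a guide to the level without a target, read 19.0 to 25.6 on the arrays labelled double KO and 20.1 to 29.9 on those labelled wild type. Ratios of 3′ to 5′ control probe sets, a sign of RNA integrity, were 4.98 to 6.35 for beta-actin on the arrays labelled double KO and 5.55 to 8.94 on those labelled wild type. For Gapdh they were 4.95 to 8.56 and 4.83 to 10.1. Wild type replicate 1 had the highest ratio for both genes. All 8 genes listed as made by double negative thymocytes, such as Ptcra and Rag1, read above the brightest control on every array. Of the 3 genes whose proteins such cells should lack at their surface, Cd4 read above it on no array, and Cd8a and Cd8b1 on all 6. Wild type replicate 3 stood apart. The 10 granulocyte markers summed to 18595 to 27881 on the arrays labelled double KO, to 11574 and 25107 on wild type replicates 1 and 2, and to 335 on wild type replicate 3. Not every marker was far lower there. Elane, at 37.9, lay within the range of the other arrays (28.2 to 45.3), and Mpo, at 29.7, was close to the arrays labelled double KO (29.8 to 51.5). The red cell markers summed to 284 to 364 on the arrays labelled double KO, to 294 and 38.5 on wild type replicates 1 and 2, and to 3228 on wild type replicate 3. There Alas2 alone read 3142, and Klf1, at 46.3, lay within the range of the other arrays. Hba-a1 was dim but highest on wild type replicate 3, at 39.0, and read 2.82 to 25.2 on the other arrays. Xist, a female transcript, read 3910 to 6015 on the arrays labelled double KO, and Eif2s3y, a gene of the Y chromosome, 186 to 265 on the same arrays. In wild type replicates 1, 2 and 3, Xist read 1439, 3977 and 5311, and Eif2s3y read 476, 13.2 and 0.625, so Xist and Eif2s3y both read above the brightest control on 4 arrays, although each is labelled as 1 animal. The Y-linked genes Kdm5d and Uty read 10.3 to 29.5 and 11.4 to 23.4 on the arrays labelled double KO, mostly below the brightest control, and 144 and 63.7 on wild type replicate 1.

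**Figure D1:**
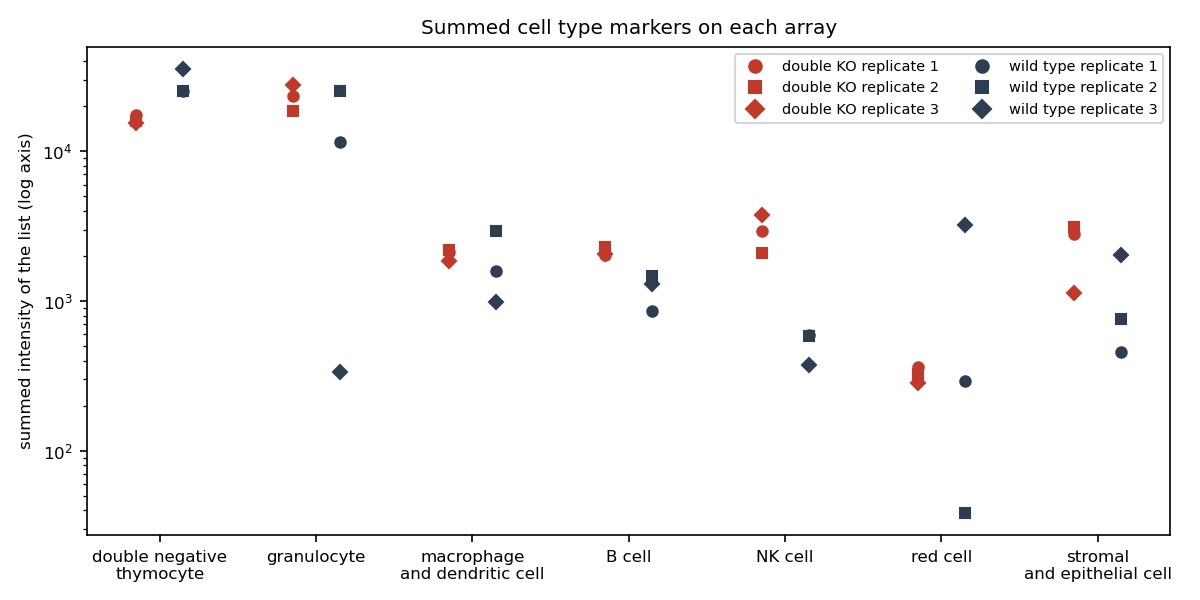
Summed deposited intensity (log axis) of marker genes of 7 cell types on each array, with red points for arrays labelled double KO, dark points for arrays labelled wild type and symbols for replicates. Wild type replicate 3 lies far below the other arrays for granulocyte genes, at 335, and the NK cell sums of the groups do not overlap. The thymocyte sums here include the CD4 and CD8 genes.

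Marker levels differed between the groups as well. Of the 8 genes made by double negative thymocytes, 3 (Ptcra, Il2ra and Dntt) fell in the arrays labelled double KO and none rose, with summed intensities of 15336 to 17395 against 24942 to 35136 in the arrays labelled wild type. Neither Cd8a nor Cd8b1 passed the test. Of 3 tested NK cell genes all were higher, with sums over 4 genes of 2082 to 3728 against 374 to 591, while Ncr1, a defining NK receptor, read above the brightest control on no array. Of 4 tested B cell genes 1, Cd79b, was higher (sums of 2022 to 2280 against 858 to 1466). Cd79b itself read 1782 to 1922 against 571 to 1081 and made up most of these sums. Cd79a (-0.60), Ms4a1 (-0.15) and Pax5 (-0.02) had negative differences that did not pass, and Ebf1, not tested, a positive one (0.27). None of the tested granulocyte, macrophage and dendritic, red cell or stromal and epithelial genes changed. In such bulk samples, a change in the number of cells of a type and a change in RNA per cell cannot be told apart. The part of these markers in the results for EGR, NAB, SRF and ELK genes was not tested, beyond a fit with a granulocyte score.

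Across the circuit, Egr1 alone passed the test, and its signal was higher in the arrays labelled double KO. Values were compared as log2 of intensity plus 16, centred on each array's median, with limma and Benjamini-Hochberg adjustment over all probe sets tested at a threshold of 0.05. Probe sets in the dimmest 40% of the array were not tested. Of the 23 member probe sets, 18 from 9 genes were bright enough. Of these 18, 1 rose and none fell, whereas 5.03% of the 27022 probe sets tested changed, 2.91% higher and 2.11% lower. An unadjusted p under 0.05 was found for 2 of the 18 and for 18.8% of all tested. The median log2 difference of the 18 was 0.03, beside 0.00 for all probe sets tested, and 9 were positive and 9 negative. The groups did not overlap in 2 of the 18, both higher, and 23.9% of all tested probe sets showed such separation, 12.3% higher and 11.6% lower. The 95% interval of the difference held 0 in 16 of the 18, and 9 of the 18 intervals lay wholly between -1 and 1, so that a change of 2-fold in intensity plus 16, either way, lies outside them. These include the dim Elk3 probe sets 1417662_at and 1445886_at, whose intervals depend on the offset. Their SEs were 0.27 and 0.34, and 0.46 and 0.77 with an offset of 1.

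**Figure D2:**
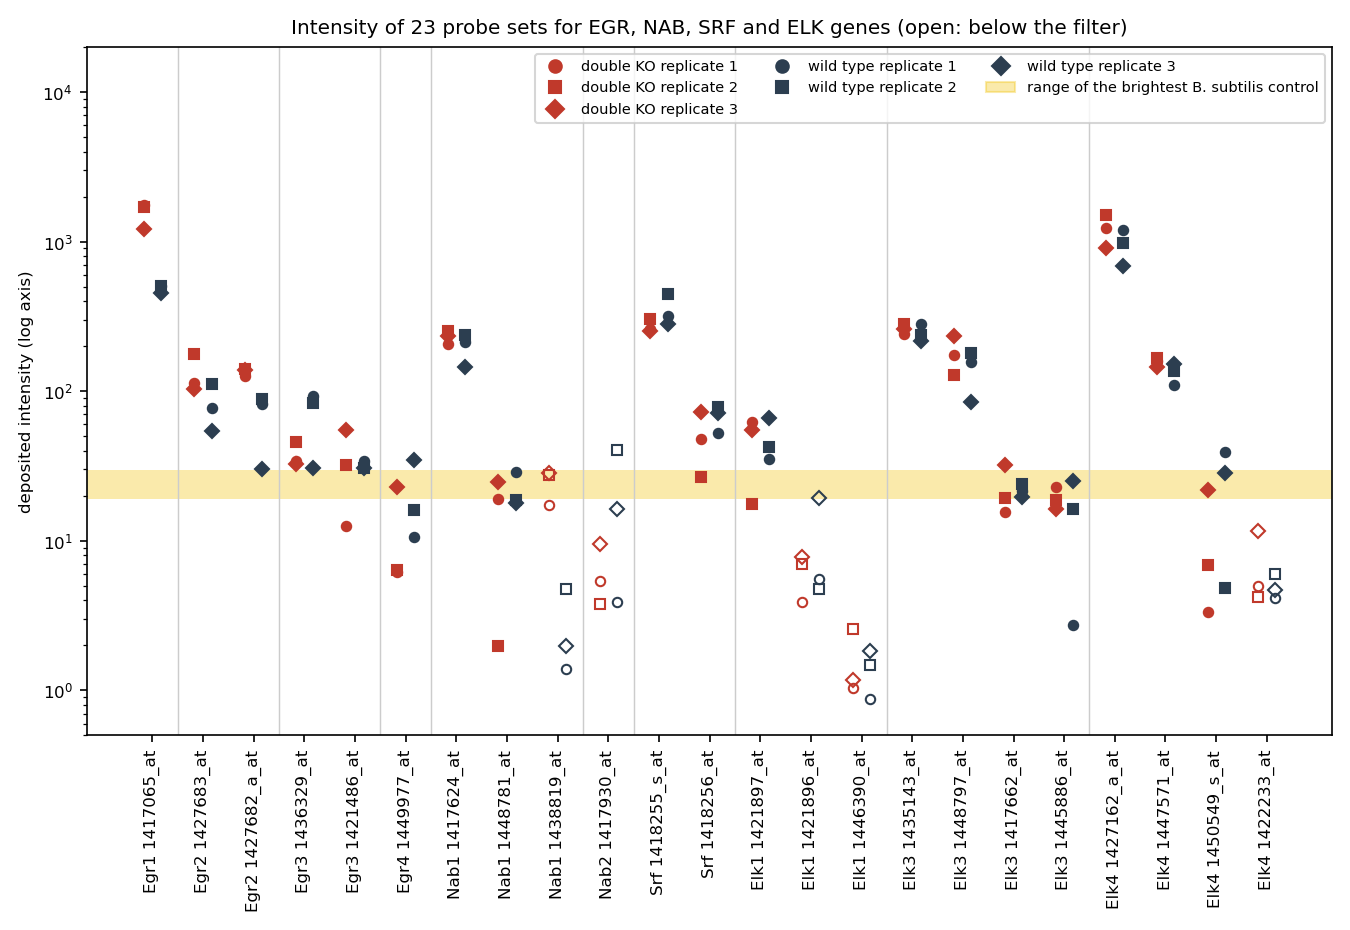
Deposited intensity (log axis) of each of the 23 probe sets on the 6 arrays, red for arrays labelled double KO and dark for arrays labelled wild type, with replicates by symbol and open symbols for the 5 probe sets below the filter. The band spans the brightest bacterial control, 19.0 to 29.9, and levels of different probe sets cannot be compared. Egr1 is the bright probe set with a clear gap between groups, and most others overlap.

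Egr1, the first of the targeted genes and the EGR protein most studied as an early response factor, read 1757, 1696 and 1221 on the arrays labelled double KO, and 508, 509 and 455 on the arrays labelled wild type. The lowest array labelled double KO was thus above every wild type array. Means were 1558 ± 294 and 490 ± 30.8 (SD, n = 3 each), a ratio of 3.18, and Egr1 rose by 1.60 on the log2 scale (SE 0.24, limma adjusted p = 0.00312). A transcript signal that is higher and not lower goes against a plain reading of the label. The sources used here do not place this probe set relative to the disrupted part of the gene, so it does not check the label. Without wild type replicate 1 the difference was 1.60, without wild type replicate 3 it was 1.54, and with the granulocyte score in the fit it was 1.55, each past the threshold.

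Egr3, the other targeted gene, is read by 2 probe sets that were dim. 1436329_at read 34.4, 45.8 and 32.9 on the arrays labelled double KO and 92.2, 83.1 and 30.8 on the arrays labelled wild type. Only wild type replicate 3 kept the groups from separating. The difference of -0.59 (SE 0.32, limma adjusted p = 0.367) did not pass with all arrays. Without wild type replicate 3, whose granulocyte sum was 335, Egr3 fell by 0.98 (SE 0.25, limma adjusted p = 0.0278). The fit with the granulocyte score gave -0.97 (limma adjusted p = 0.0404), but that score was 5.35 on wild type replicate 3 and 8.76 to 9.79 on the other arrays, so both settings turn on the same array. Over all 16 alternatives the adjusted p ran from 0.0278 to 0.676. The other probe set, 1421486_at, read 12.5, 32.1 and 55.4 on the arrays labelled double KO and 34.2, 30.5 and 30.5 on the arrays labelled wild type. The wild type values lay within the range of the others, and the wide spread in the arrays labelled double KO left a difference of -0.07 (SE 0.32, 95% interval -0.77 to 0.64).

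**Figure D3:**
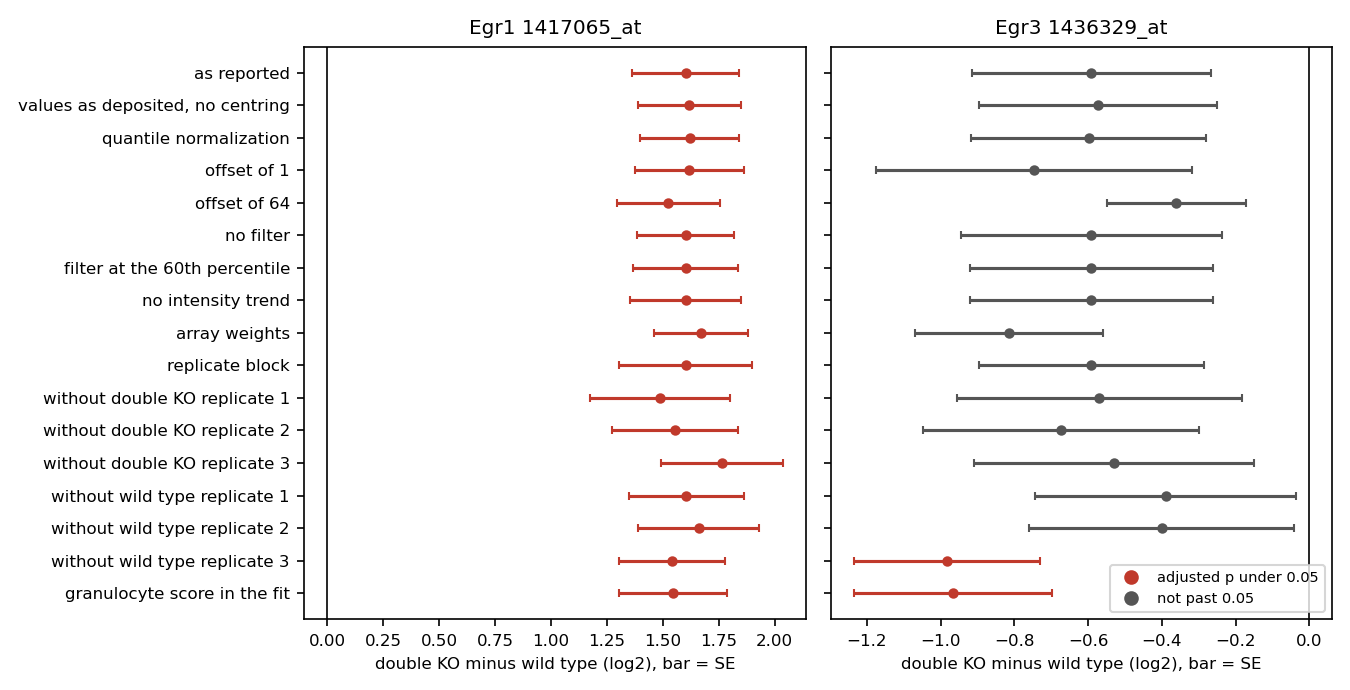
Difference, double KO minus wild type on the log2 scale, of Egr1 1417065_at (left) and Egr3 1436329_at (right) as reported and under 16 alternatives, with bars for the SE and red for an adjusted p under 0.05. Egr1 stays between 1.49 and 1.76 and past the threshold throughout, and Egr3 passes it in 2 of the 16.

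Egr2, which with Egr3 acts in thymocyte proliferation and T cell anergy, was not named in the knockout, and both its probe sets had higher means in the arrays labelled double KO without passing. 1427682_a_at read 126, 140 and 139 on the arrays labelled double KO and 82.0, 88.2 and 30.3 on the arrays labelled wild type. The groups did not overlap, and the difference was 0.93 (SE 0.32, 95% interval 0.24 to 1.63, limma adjusted p = 0.125). 1427683_at read 114, 177 and 103 on the arrays labelled double KO and 76.6, 112 and 54.3 on the arrays labelled wild type. Here replicate 2 of the wild type lay among the arrays labelled double KO, and the difference was 0.59 (SE 0.30, limma adjusted p = 0.317). Wild type replicate 3 was the lowest of the 6 arrays on both. Neither probe set passed under any of 16 alternatives, where the lowest adjusted p was 0.0865 for 1427682_a_at.

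Egr4, a relative best known from neurons and germ cells, was at the level of the bacterial controls. It read 6.19, 6.34 and 22.8 on the arrays labelled double KO and 10.7, 15.99 and 34.5 on the arrays labelled wild type, of which 1 array was above its brightest control. The groups overlapped (-0.41, SE 0.35, limma adjusted p = 0.598).

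**Figure D4:**
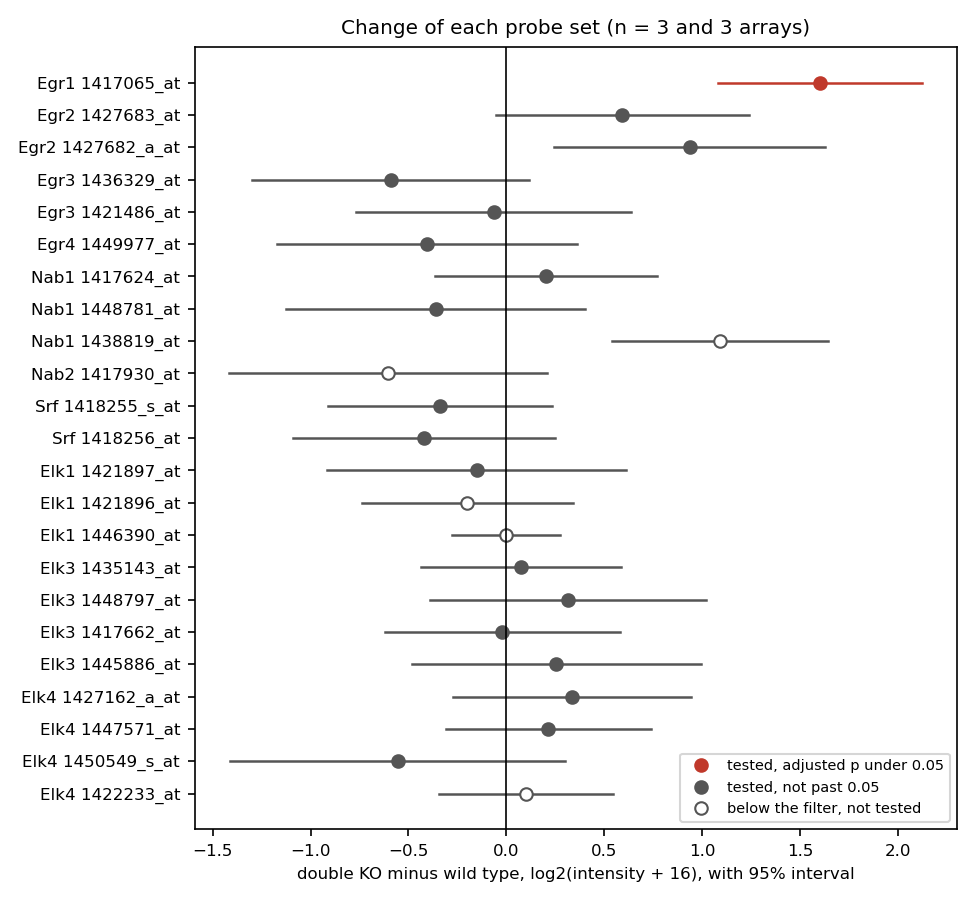
Difference, double KO minus wild type of log2(intensity + 16), of each of the 23 probe sets with its 95% interval from limma (n = 3 and 3 arrays). Red marks the probe set past the threshold, grey those tested and not past it, and open circles the 5 that were not tested. Only Egr1 1417065_at is red, at 1.60.

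Nab1, the corepressor that many cells make constantly, had its brightest probe set, 1417624_at, at 206, 252 and 234 on the arrays labelled double KO and 213, 238 and 146 on the arrays labelled wild type. The groups overlapped, with wild type replicate 3 the lowest array, and the difference was 0.20 (SE 0.26, 95% interval -0.37 to 0.77). The dim 1448781_at gave -0.36 (SE 0.35, limma adjusted p = 0.649). Another probe set, 1438819_at, lay below the filter and was not tested, although its groups separated. It read 17.5, 27.6 and 28.4 on the arrays labelled double KO and 1.38, 4.73 and 1.98 on the arrays labelled wild type. Of these arrays, 2 labelled double KO and none labelled wild type were above their brightest bacterial control, and the unfiltered fit gave 1.09 (SE 0.25, limma adjusted p = 0.0524). The Nab1 promoter with its 3 EGR matches was shown above.

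Nab2, the corepressor gene that EGR proteins themselves switch on, was below the filter. It read 5.35, 3.81 and 9.50 on the arrays labelled double KO and 3.92, 40.6 and 16.4 on the arrays labelled wild type. The groups overlapped, and 1 array, wild type replicate 2, read above its brightest control. The unfiltered difference was -0.61 (SE 0.37).

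Srf, the factor that holds the ternary complex on DNA, had lower means in the arrays labelled double KO on both probe sets, neither past the test. 1418255_s_at read 259, 304 and 253 on the arrays labelled double KO and 317, 447 and 283 on the arrays labelled wild type. The array labelled double KO replicate 2 lay above wild type replicate 3, and the difference was -0.34 (SE 0.26, 95% interval -0.91 to 0.23). 1418256_at read 48.3, 26.7 and 72.5 on the arrays labelled double KO and 52.5, 77.9 and 71.5 on the arrays labelled wild type, a difference of -0.42 (SE 0.31, limma adjusted p = 0.515). Both kept a negative sign in all 16 alternatives.

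Elk1, the founding ternary complex factor, was dim, with 1 of its 3 probe sets tested. 1421897_at read 62.3, 17.6 and 54.6 on the arrays labelled double KO and 35.1, 42.5 and 66.2 on the arrays labelled wild type. The groups overlapped and the difference was -0.15 (SE 0.35), with a positive sign in 3 of 16 alternatives. The other 2 probe sets read no more than 7.74 on the arrays labelled double KO and 19.4 on the arrays labelled wild type.

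Elk3, also called Net, can repress its targets until ERK signals reach it. Its brightest probe set, 1435143_at, read 240, 280 and 261 on the arrays labelled double KO and 281, 236 and 216 on the arrays labelled wild type. These levels overlapped, and the difference of 0.07 (SE 0.23, 95% interval -0.44 to 0.58) has an interval that leaves out a change of 2-fold either way on the scale of intensity plus 16. 1448797_at read 174, 128 and 235 on the arrays labelled double KO and 156, 181 and 84.9 on the arrays labelled wild type (0.31, SE 0.32). The 2 dim probe sets gave -0.02 (SE 0.27) for 1417662_at and 0.26 (SE 0.34) for 1445886_at.

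Elk4, or SAP-1, which in mice acts upstream of Egr1 in thymocyte selection, was bright on 1427162_a_at. It read 1238, 1516 and 902 on the arrays labelled double KO and 1197, 983 and 682 on the arrays labelled wild type. The groups overlapped, and the difference was 0.34 (SE 0.28, 95% interval -0.27 to 0.94). 1447571_at read 159, 166 and 146 on the arrays labelled double KO and 109, 137 and 151 on the arrays labelled wild type, a difference of 0.21 (SE 0.24). Both stayed positive in all 16 alternatives and passed in none. The dim 1450549_s_at gave -0.55 (SE 0.39, limma adjusted p = 0.501), and 1422233_at, not tested, gave 0.10 (SE 0.20).

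The arrays were not alike in how often they gave the extreme value. Wild type replicate 3 was the lowest of the 6 arrays in 8 of the 18 tested member probe sets (44.4%), and it was the lowest in 21.0% of all tested probe sets. No other array was the lowest in more than 4 of the 18.

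Genes whose log2 values followed Egr1 most closely over the 6 arrays, among 13186 other genes, were Pdcd4, an inhibitor of translation (Pearson r = 0.998), Gkap1 (0.997), Tbx21, the T-bet factor (0.995), Tmem40 (0.995) and Pon2 (0.995). All arrays of 1 label share their group, so such values mostly restate a difference between groups. Pdcd4 read 4472, 4741 and 3590 on the arrays labelled double KO and 1764, 1641 and 1553 on the arrays labelled wild type, with the order of arrays much like that of Egr1. Of the member probe sets, those of Egr2 came closest (0.79 for 1427682_a_at and 0.74 for 1427683_at), and the brighter Egr3 probe set had an r of -0.50.

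Around the circuit, 5 early response genes among those that SRF and its ternary complex factors control rose in the arrays labelled double KO. With 1 probe set for each gene, the brightest, 5 of 15 tested genes of that list rose and none fell, and the difference was positive in all 15, with a median of 0.71. Of these 15, Fos and Atf3 had a wild type mean below the filter and were tested because of their level in the arrays labelled double KO. Of the other 13, 4 rose, and the median of the 13 was 0.61. Over all 13187 genes 7.47% changed, 4.41% higher and 3.06% lower, with a median of -0.01. Fos, a subunit of the AP-1 factor, read 80.5, 89.2 and 76.7 on the arrays labelled double KO and 23.8, 4.57 and 1.62 on the arrays labelled wild type. All wild type arrays were below their brightest bacterial control, so only a bound can be given. Set against those controls, Fos was at least 3.29-fold higher in the arrays labelled double KO (limma adjusted p = 0.00279 for the fitted difference). Ier2 read 1593, 1629 and 1706 on the arrays labelled double KO and 355, 781 and 476 on the arrays labelled wild type, a rise of 1.64 (SE 0.30, limma adjusted p = 0.00692). Fos and Ier2 passed in each of 16 alternatives.

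Dusp1, a phosphatase of MAP kinases, rose by 1.39 (SE 0.33, limma adjusted p = 0.0261), Klf6 by 1.03 (SE 0.27, adjusted p = 0.0426) and the growth inhibitor Btg2 by 1.07 (SE 0.29, adjusted p = 0.0482). Of the genes that did not pass, the survival gene Mcl1 had a difference of 0.56 (SE 0.20) and Atf3 of 0.84 (SE 0.31). Other tested probe sets of Klf6 gave differences from 0.12 to 0.83 and that of Btg2 0.96 (SE 0.43), and none of them passed. The count of 5 moved with the arrays used: 2 genes rose without double KO replicate 1 or 3, 3 without double KO replicate 2 or wild type replicate 1 or 2, and 6 without wild type replicate 3. The share of all genes that rose moved too, from 1.47% without double KO replicate 1 to 7.1% without wild type replicate 3. These genes are also made by cells other than thymocytes. NK cell sums were higher and thymocyte sums lower in the same arrays, and their part in these differences was not tested. With the granulocyte score in the fit, which holds no NK cell or thymocyte marker, 5 of 15 rose, beside 6.39% of all genes.

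**Figure D5:**
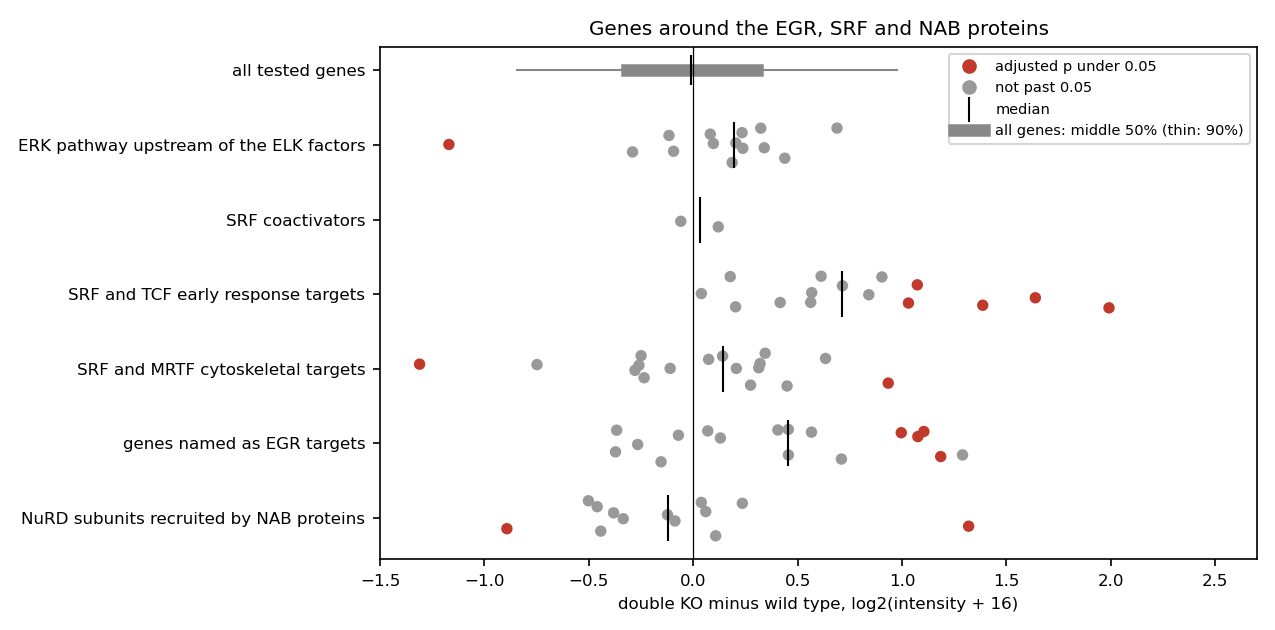
Difference, double KO minus wild type of log2(intensity + 16), of each tested gene in 6 lists around the circuit, with a line for the median and red for an adjusted p under 0.05. The grey bar gives the middle of the distribution of all tested genes. Early response targets all lie right of 0, with a median of 0.71, and the other lists straddle it. Without Fos and Atf3, whose wild type means were below the filter, the median of the early response targets was 0.61.

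Upstream of the ELK proteins, 14 of 22 genes of the ERK pathway were named on the array and tested. Of these 14, 1 fell and none rose (median 0.20), so that 7.14% changed, near the 7.47% of all genes. Without wild type replicate 3, Plcg1 rose as well, by 0.87 (SE 0.26, limma adjusted p = 0.0406), and the median was 0.05. In that setting 14.1% of all genes changed, 7.1% of them all being higher. The gene that fell was Rasgrp1, an activator of RAS in thymocytes. Rasgrp1 read 280, 247 and 314 on the arrays labelled double KO and 877, 793 and 375 on the arrays labelled wild type. It fell by 1.17 (SE 0.32, limma adjusted p = 0.0493). Its other 3 probe sets were dim and gave 0.35, -0.40 and -0.36, and the call was lost when any array other than wild type replicate 3 was left out. Plcg1, the phospholipase that feeds Rasgrp1, had a difference of 0.69 (SE 0.27) and the kinase Rps6ka5 of 0.44 (SE 0.23), and neither passed with all arrays. The SRF coactivators Mrtfa (0.12, SE 0.33) and Mrtfb (-0.06, SE 0.31) did not pass, and Myocd was below the filter.

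Cytoskeletal genes that SRF controls with these coactivators went both ways. Of 17 tested, 1 rose and 1 fell (11.8% changed, beside 7.47% of all genes). The median was 0.14 with all arrays, -0.02 without double KO replicate 3, -0.12 without wild type replicate 3 and -0.15 with the granulocyte score. The actin-binding gene Cnn2 read 1931, 1974 and 1709 on the arrays labelled double KO and 973, 1089 and 830 on the arrays labelled wild type, a rise of 0.93 (SE 0.22, limma adjusted p = 0.0274). Talin, Tln1, fell by 1.31 (SE 0.35, limma adjusted p = 0.0415), but its other probe sets gave -0.45 (SE 0.29) and 0.50 (SE 0.30). Tpm4 had a difference of 0.63 (SE 0.31) and the actin-severing gene Cfl1 of -0.75 (SE 0.38), and neither passed with all arrays. Without wild type replicate 3, Cfl1 fell by 1.18 (SE 0.29, limma adjusted p = 0.0178). The Cnn2 call was lost without wild type replicate 1 or any 1 array labelled double KO, and the Tln1 call when any array other than wild type replicate 3 was left out.

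Downstream, of 17 tested genes that have been named as EGR targets in T cells or other cells, 4 rose and none fell, with a median of 0.46. Over all genes 4.41% rose and 3.06% fell. Of the 17, Tnf and Rnf128 had a wild type mean below the filter. Of the other 15, 3 rose, and the median of the 15 was 0.41. Ndfip1, an adaptor of ubiquitin ligases, read 3095, 3313 and 2706 on the arrays labelled double KO and 1080, 1109 and 1858 on the arrays labelled wild type. It rose by 1.19 (SE 0.25, limma adjusted p = 0.0141), and its other probe sets gave 1.28 (SE 0.23, limma adjusted p = 0.0143) and 0.65 (SE 0.22). The death ligand gene Fasl rose by 1.08 (SE 0.27, limma adjusted p = 0.0354) and the cytokine signal inhibitor Socs1 by 1.00 (SE 0.27, adjusted p = 0.0490). The cytokine gene Tnf read 33.3 to 39.7 on the arrays labelled double KO and 5.15 to 10.2 on those labelled wild type, where every array was below its brightest bacterial control. Set against those controls, Tnf was at least 1.43-fold higher (limma adjusted p = 0.0287 for the fitted difference), and a dim probe set of Fasl gave -0.06 (SE 0.37). Tnfrsf9 had a difference of 1.29 (SE 0.41, limma adjusted p = 0.0881) and Zbtb16 of 0.57 (SE 0.24), and neither passed. None of these 17 rose without double KO replicate 1 or 2 or wild type replicate 1, 1 rose without double KO replicate 3 or wild type replicate 2, and 5 without wild type replicate 3. Over all genes the share that rose ran from 1.47% without double KO replicate 1 to 7.1% without wild type replicate 3.

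Of 13 subunits of the NuRD chromatin complex, through which NAB proteins repress, 1 rose and 1 fell (15.4% changed, beside 7.47% of all genes). The median was -0.12 and ran from -0.31 to -0.08 with 1 array left out. Without wild type replicate 3, where 14.1% of all genes changed, 3 fell. Those added, named after their values were seen, were Gatad2a (-0.81, SE 0.25) and Gatad2b (-0.91, SE 0.26). For Gatad2b another probe set was then the brightest, and the same probe set gave -0.32 with all arrays. Mta3 read 1816, 2064 and 2264 on the arrays labelled double KO and 912, 1117 and 497 on the arrays labelled wild type, a rise of 1.32 (SE 0.30, limma adjusted p = 0.0215). The histone deacetylase Hdac2 read 941, 1125 and 934 on the arrays labelled double KO and 1919, 1638 and 1983 on the arrays labelled wild type, a fall of 0.89 on the log2 scale (SE 0.21, limma adjusted p = 0.0263). Other probe sets gave 0.96 (SE 0.24) and -0.15 (SE 0.27) for Mta3 and -0.52 (SE 0.23) and -0.0015 (SE 0.30) for Hdac2, and none of these passed. Rbbp7 had a difference of -0.38 (SE 0.18) and Hdac1 of -0.46 (SE 0.25), and neither passed. The Mta3 call was lost without wild type replicate 1 or any 1 array labelled double KO, and the Hdac2 call when any array other than wild type replicate 3 was left out.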

How the data were processed

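Single-colour arrays measured amplified RNA of 3 samples labelled Egr1/Egr3 double knockout and 3 labelled wild type. The deposited table holds linear intensities of 45101 probe sets, scaled by the authors to a common trimmed mean (150.0 over the middle 96% of values on each array, as the deposited table shows). The sources used here do not name the scanner software. After 64 controls were left out, 45037 probe sets remained, of which 34945 have 1 gene symbol in the platform annotation, 932 several and 9160 none. Symbols were updated through RefSeq (34741 matched).

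An offset of 16 was added, log2 taken, and each array centred on its median, as medians differed by 0.126. A filter at the 40th percentile of the mean (log2 4.87, or 13.2 in intensity) left 27022 probe sets. limma 3.58.1 (R 4.3.3) tested these by lmFit, eBayes with trend and Benjamini-Hochberg adjustment. Differences are double KO minus wild type. Probe sets below the filter take values from the fit without it. Gene counts use the brightest probe set of each of 13187 genes, adjusted again over genes. The test was checked on simulated data. It recovered none of the smaller changes put in and only part of the larger ones, so a difference that did not pass may still be real. Named genes were all members, called genes of each list (up to 6), its next 2 by p, and the 5 genes most like Egr1. Members and lists were chosen with earlier results of these data known. Only separate numbered animals are given for the replicates. Same-numbered arrays did not deviate together (correlations of -0.05, -0.13 and -0.29), so no pairing was used. The number of arrays limits the precision. Alternatives tried were no centring, quantile normalization, offsets of 1 and 64, no filter or one at the 60th percentile, no trend, array weights, a replicate block, each array left out, the probe set of smallest p for list counts and, added after seeing the data, a granulocyte score.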

Additional observations from a re-analysis of the deposited data

How the results depend on the processing

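Egr1 stayed higher and past the threshold in all 16 alternatives (1.49 to 1.76, adjusted p 0.000243 to 0.0437; 1.49 to 1.76 with 1 array left out). The number of member probe sets past it was 1 or 2 with 1 array left out and 2 with the granulocyte score, chosen after seeing the data, the added member being Egr3 1436329_at. That score is low on wild type replicate 3 alone, so it acts much like leaving that array out. Of probe sets and genes changed (1358 and 985), there were 3417 and 2103 with array weights, 2579 and 1697 with the granulocyte score, and 376 to 2744 and 292 to 1855 with 1 array left out. With the replicate number as a block, 573 and 426 changed and Egr1 kept its call, although the numbers do not pair the animals. The 5 early response genes that rose were 3 with an offset of 1 or without an intensity trend, 2 with the block and 2 to 6 with 1 array left out. The 4 named EGR targets were 1 without a filter, 0 with the block and 0 to 5 with 1 array left out. Of all genes, 3.38% rose with an offset of 1, 3.7% without an intensity trend, 2.69% without a filter and 2.22% with the block. With 1 array left out, 1.47% to 7.1% of all genes rose. Of the ERK genes, 1 rose with array weights and with the granulocyte score, with medians of 0.03 and 0.05, where 8.59% and 6.39% of all genes rose.

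Signs turned in 13 values of dim or little-changed member probe sets, none past the threshold. With 1 array left out, Egr3 1421486_at ran from -0.38 to 0.26, Nab1 1448781_at from -0.60 to 0.019, Elk1 1421897_at from -0.40 to 0.25, Elk3 1435143_at from -0.016 to 0.15, Elk3 1417662_at from -0.20 to 0.086 and Elk3 1445886_at from -0.084 to 0.49. Array weights gave 0.19 for Elk1 1421897_at. The granulocyte score gave -0.011 for Nab1 1417624_at, -0.0048 for Elk3 1435143_at and -0.029 for Elk3 1448797_at. The cause was not tested. Signal near the bacterial controls limits what can be said of Egr4, Nab2 and the dim probe sets of the other genes.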
